A study of Mus musculus with 4 samples.

Results

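The receptors for serotonin, dopamine, noradrenaline and adrenaline, histamine and acetylcholine were examined in bulk RNA-seq counts of the embryonic mouse telencephalon. They were chosen by gene symbol alone (Htr, Drd, Adra, Adrb, Hrh, Chrm and Chrn genes), which gave 48 of the 27293 genes in the table. Of these, 14 are serotonin receptors or subunits, 5 dopamine, 9 adrenergic, 4 histamine, 5 muscarinic and 11 nicotinic. Telencephalic tissue of C57BL/6 embryos was collected at E13, and 2 libraries labelled WT were compared with 2 labelled cKO, whose genotype is STINGf/f;Nestin-Cre. STING (Tmem173) relays cytosolic DNA sensing to NF-κB and interferon signaling. In the cKO both alleles are flanked by loxP sites and Cre is driven in neural progenitors by Nestin sequences, so vessels, meninges and blood keep the gene except where Cre acts in them. Whether a WT embryo carried the floxed alleles or Cre is not stated, and the title of WT 2, unlike that of WT 1, carries the abbreviation "nes". Nothing in the labels says how many embryos went into a library, so p-values measure only the spread between these libraries.

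Monoamine receptors and muscarinic receptors are G protein-coupled receptors, while nicotinic receptors and the serotonin receptor built from Htr3a are ligand-gated ion channels made of several subunits. In the adult forebrain, monoamines come mainly from neurons whose cell bodies lie in the brain stem and whose axons reach the cortex during embryonic life, and acetylcholine comes largely from basal forebrain neurons and local striatal cells. Several of these receptors are present in progenitors and young neurons before synapses form, and Htr2c is a classical marker of the choroid plexus as well as a neuronal receptor.

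Library totals ran from 17209654 to 18533391 counts, so a gene listed at 0 could have up to 3 counts, or 0.162 to 0.174 CPM by the plain total (CPM, counts scaled to library size). Other CPM are scaled by TMM, the library scaling of edgeR, and take no account of gene length. Tmem173 had 20 and 19 counts in the libraries labelled WT, and the cKO libraries held 18 and 22, a cKO over WT ratio of 1.02 (95% interval 0.637 to 1.62 from counting error alone). A count over all exons of the gene can keep reads from exons that Cre does not remove, and from cells without Cre, so this value does not check the labels. WT 1 stood apart for genes of tissues next to the cortical wall. The 14 meninges and mesenchyme markers summed to 336 CPM in WT 1 and to 55.6 to 99.1 CPM in the other libraries, and the 12 motile cilium markers measured summed to 71.8 CPM against 25.5 to 27.5 CPM. Of the 11 mesenchyme markers tested 3 were lower in cKO by the 2-fold rule defined with the comparison, with a median log2 fold change of -1.49, but without WT 1 the median was 0.20 and 1 was called. Telencephalic identity was present in every library. The cortical neuron list summed to between 5165 and 6251 CPM and the ventral telencephalon and striatum list to between 806 and 1200 CPM. In the diencephalon and midbrain, cortical progenitor, Cajal-Retzius and subplate, microglia and macrophage, endothelium and mural cell, and mast cell and blood lists, medians ran from -0.38 to 0.08 and Acta2 alone was called, at 59, 14, 12 and 11 counts.

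Receptor transcripts were scarce at this age. All 48 genes had at least 1 count in some library, 29 had at least 10 counts in a library, and 28 passed edgeR's filter on low counts and were tested. The receptors together took between 0.0174% and 0.0203% of the counts of a library, and 54.9% of these fell on 1 gene, Chrnb2, the β2 subunit of heteromeric neuronal nicotinic receptors. Per kilobase of exon, Chrnb2 reached 12.7 CPM (11.9 to 13.5 over the 4 libraries). Its usual partner Chrna4 followed at 2.45 CPM per kb (1.64 to 2.98) and the α2A adrenergic receptor Adra2a at 2.37 (1.84 to 2.62). The ranges of Chrna4 and Adra2a overlapped each other and that of Htr3a, whereas that of Chrnb2 was far above both. Next came Htr3a (1.69 CPM per kb), Hrh3 (1.55), Adra2c (1.37), Chrna7 (1.36), Drd2 (1.27) and Chrna3 (1.12), whose ranges over the libraries all overlapped. The other tested receptors lay between 0.0913 (Htr1b) and 0.886 CPM per kb (Drd1). In bulk tissue, fewer cells of a type and less RNA per cell cannot be told apart.

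**Figure D1:**
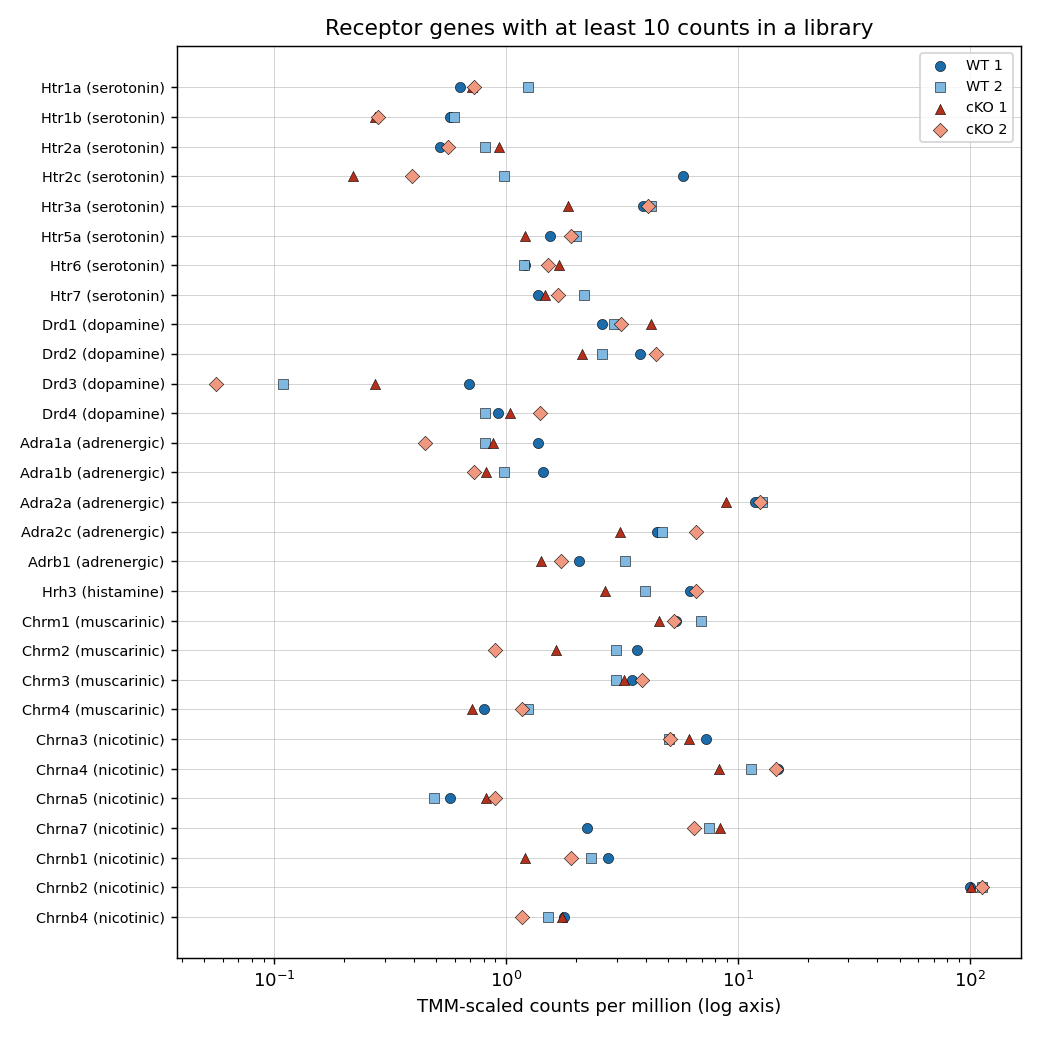
Level of the 29 receptor genes with at least 10 counts in some library, as TMM-scaled CPM on a log axis, with 1 marker per library (blue WT, red cKO) and genes grouped by family. Chrnb2 stands alone near 100 CPM, most genes lie between 0.5 and 15 CPM, and Htr2c has the widest gap between its 2 WT libraries among the tested genes.

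To ask whether receptor expression differed between cKO and WT, the 28 genes were read from a fit over all 16145 genes that passed the filter. At a Benjamini-Hochberg adjusted p under 0.05 (edgeR quasi-likelihood), 0 receptors were called, as were 0 (0%) of all genes, with a smallest adjusted p of 0.999897. DESeq2 called 0 as well. In the edgeR fit 2 receptors and 199 genes in all had an unadjusted p under 0.05. By the rule of the study, a fold change of at least 2 with an unadjusted p of at most 0.05, 2 receptors were lower in cKO, Htr2c and Chrm2, beside a background of 0.669% of all genes tested. No receptor was higher by that rule (0 of 28, background 0.142%). The median log2 fold change of the tested receptors was -0.17, with 18 below 0 and 10 above, beside -0.0094 for all genes, of which 52.1% were below 0. This median was -0.43 without cKO 2 and 0.01 without cKO 1. Counts are given in the order WT 1, WT 2, cKO 1 and cKO 2, with "against" between the groups.

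**Figure D2:**
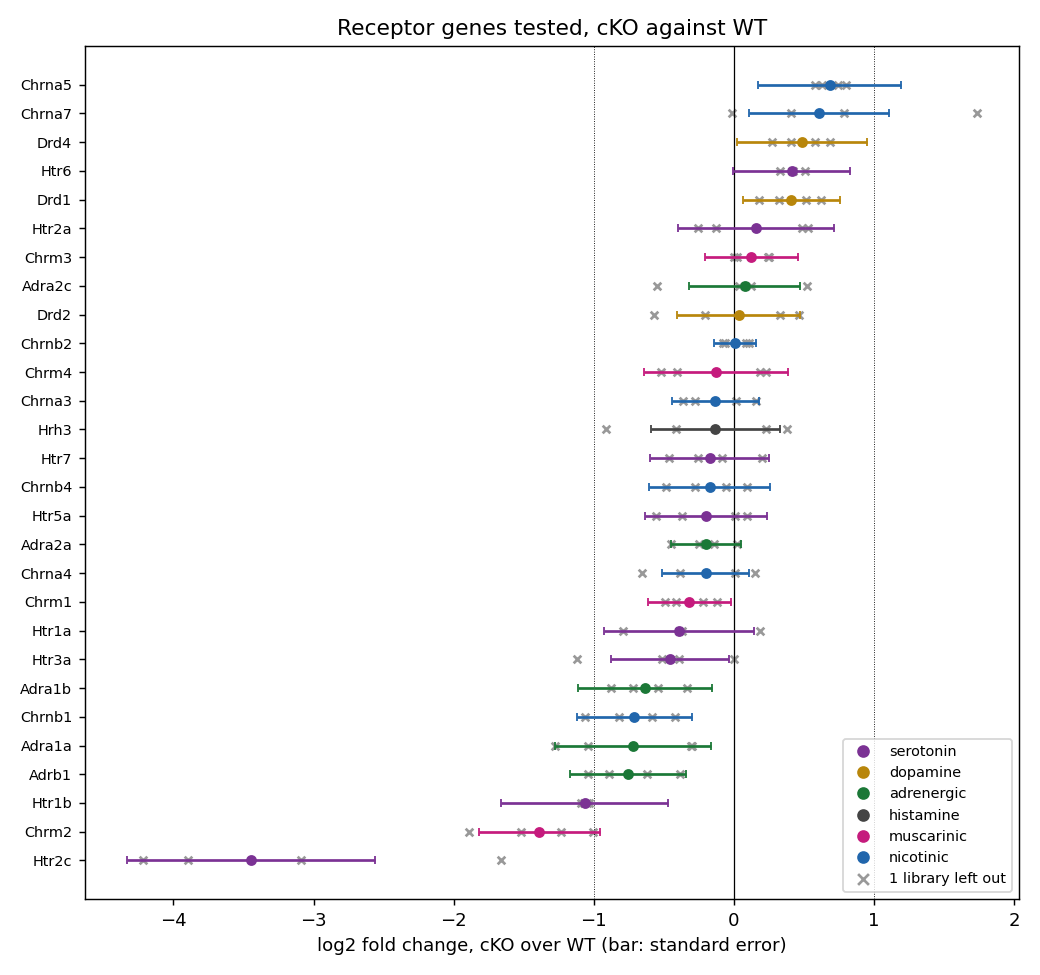
Log2 fold change of cKO over WT for the 28 tested receptor genes (points, colored by family) with the standard error of the fit (bars) and the values obtained when 1 library was left out (grey crosses); dotted lines mark a 2-fold change. Htr2c and Chrm2 lie at the bottom at -3.44 and -1.39, and the crosses of Chrna7 span from -0.01 to 1.73.

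Among the serotonin receptors, Htr2c (ENSMUSG00000041380, GRCm38 chromosome X, 146962513 to 147197277, plus strand), a Gq-coupled receptor, reached 101 counts in WT 1 and 18 counts in WT 2, with 4 and 7 counts left in the cKO libraries. Both cKO libraries were below both WT libraries, and WT 1 was far above the rest. Its level was 3.39 ± 3.42 CPM in WT and 0.305 ± 0.122 CPM in cKO (SD, n = 2 each), a log2 fold change of -3.44 (SE 0.886). The gene was singled out by the study from these libraries, so its difference here is a description, and the thresholds it passes or misses are no independent evidence. The study also measured Htr2c by qPCR in WT and cKO at E13 and describes it as downregulated. The WT libraries differed from each other by 5.94-fold (95% interval 3.58 to 10.4, counting error alone), and WT 2 exceeded the 2 cKO libraries by 3.21-fold (1.44 to 7.53). Without WT 1 the log2 fold change was -1.66 (SE 0.889), and Htr2c no longer met the rule of the study. Without WT 2 it was -4.22 (SE 0.639), and this fit placed Htr2c under an adjusted p of 0.05 together with 0.496% of all genes, as did the fit without a filter on low counts (0.238% of all genes).

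Most choroid plexus epithelium markers, though not all, moved with Htr2c in WT 1. Kcne2, a potassium channel subunit of this epithelium, had 183 counts in WT 1 and between 4 and 13 in the other libraries. The bicarbonate transporter gene Slc4a5 had 53, 10, 1 and 1 counts and so shared with Htr2c both the excess in WT 1 and the remaining excess of WT 2 over cKO. The folate receptor gene Folr1 had 67, 0, 8 and 4 counts and Cldn2 had 12, 0, 0 and 0, so that in WT 2 both were at 0. Of the 22 listed markers 20 were in the table and 11 were tested, of which 8 were below 0 and 3 met the rule (Kcne2, Aqp1 and Otx2). Igfbp2, Rdh5 and Steap1 were above 0. Rdh5 had 78, 60, 77 and 79 counts, and Steap1 had 11, 17, 27 and 17, lowest in WT 1. The list summed to 354 and 256 CPM in the WT libraries and to 248 and 297 CPM in the cKO libraries, sums held up by Igfbp2 and Slc4a2, which also mark other cells. Its median log2 fold change over the 11 tested genes was -0.84 with all libraries. Without WT 1 the median was 0.25 and the value of Htr2c was -1.66. These 11 genes include Igfbp2 and Slc4a2 and leave out Slc4a5, Folr1 and Cldn2, which did not pass the filter. The classical markers Ttr and Clic6 were measured here in a table of WT 1 and cKO 1 only, at 5071 against 23 and 526 against 2 counts. How far choroid plexus tissue in WT 1 enters the Htr2c value was not tested.

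**Figure D3:**
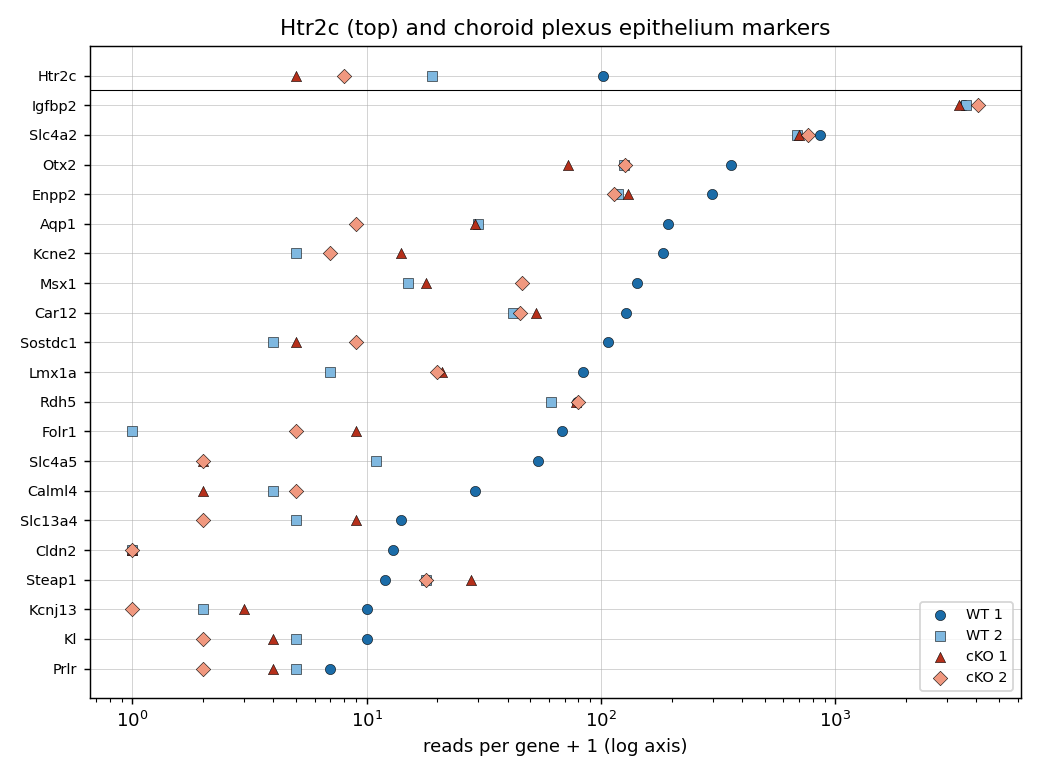
Reads per gene plus 1, on a log axis, for Htr2c (top row) and the 20 choroid plexus epithelium markers in the table, with 1 marker per library. WT 1 (dark blue) lies to the right of the other libraries for Htr2c (101 counts) and for most markers, Kcne2 (183), Sostdc1 (106) and Folr1 (67) among them, while Igfbp2 and Slc4a2 lie close together in all 4 libraries.

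Among the other serotonin receptors tested, only 1 had both cKO libraries below both WT libraries. Htr1b, a Gi-coupled receptor found on axon terminals, had 10 and 11 against 5 and 5 counts, a log2 fold change of -1.07 (SE 0.598) with an unadjusted p of 0.112 from edgeR. It shares 852 exon bases with the antisense gene D430036J16Rik, which had 3, 0, 5 and 0 counts, and since no source used here says whether counting used the strand, reads of such partners cannot be told apart. Htr3a, the channel subunit known from interneurons of the caudal ganglionic eminence, had 68 and 78 against 34 and 73 counts. Its log2 fold change was -0.46 (SE 0.421) and turned on 1 library. Without cKO 2 it was -1.12 with an unadjusted p of 0.0335 (edgeR), which met the rule of the study together with 0.582% of all genes, and without cKO 1 it was 0.00. The caudal ganglionic eminence list summed to 450 and 494 against 442 and 399 CPM, of which Reln, also a Cajal-Retzius marker, gave 248 and 321 against 314 and 259 CPM. Without Reln, a choice made after seeing the data, the 5 other genes measured summed to 202 and 173 against 128 and 140 CPM. The whole list was thus lowest in cKO 2 and the sum without Reln in cKO 1. Its members differed too, since Nr2f2 had 1173 counts in cKO 1 and 1436 in cKO 2, and Sp8 had 371 and 222. The part of these genes in the Htr3a value was not tested.

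Of the remaining serotonin receptors that were tested, only Htr6 did not overlap between the groups. Htr6, a Gs-coupled receptor linked to migration of cortical neurons, had 21 and 22 against 31 and 27 counts, with a log2 fold change of 0.41 (SE 0.417). Htr1a, the Gi-coupled autoreceptor of serotonin neurons, had 11 and 23 against 13 and 13 counts. Htr2a had 9 and 15 against 17 and 10 counts. Htr5a had 27 and 37 against 22 and 34 counts, and Htr7, which is Gs-coupled, had 24 and 40 against 27 and 30. In these 4 genes the groups overlapped. Of the 6 serotonin receptors that were not tested (Htr1d, Htr1f, Htr2b, Htr3b, Htr4 and Htr5b), none had more than 7 counts in a library.

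Dopamine receptors gave no value below 0 among the 3 tested. Drd1, the Gs/Golf-coupled receptor of the direct striatal pathway, had 45 and 54 against 77 and 56 counts, a log2 fold change of 0.41 (SE 0.346, unadjusted p 0.270, edgeR). Drd4, a Gi-coupled receptor, had 16 and 15 against 19 and 25 counts and a log2 fold change of 0.49 (SE 0.464). Both genes were above WT in both cKO libraries, but the nearest libraries differed by only 1.07-fold for Drd1 and 1.13-fold for Drd4. Drd2, the Gi-coupled receptor of the indirect striatal pathway, had 66 and 48 against 39 and 79 counts, so that cKO held both the lowest and the highest library. Drd3 had 12, 2, 5 and 1 counts and did not pass the filter, and Drd5 had 2 counts in cKO 1 and 0 elsewhere.

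Of the 5 tested adrenergic receptors 4 had values below 0, none beyond the thresholds. Adrb1, a Gs-coupled receptor, had 36 and 60 against 26 and 31 counts, a log2 fold change of -0.76 (SE 0.412, unadjusted p 0.104, edgeR). Adra1a, which couples to Gq, had 24 and 15 against 16 and 8 counts, and its groups overlapped. Its relative Adra1b had 25 and 18 against 15 and 13 counts and a log2 fold change of -0.64 (SE 0.481). The most abundant of them per kilobase, Adra2a, a Gi-coupled receptor that lies on presynaptic terminals and on young neurons, had 206 and 233 against 163 and 222 counts and a log2 fold change of -0.20 (SE 0.250). Adra2c had 78 and 87 against 57 and 118 counts, again with cKO at both ends. Adra1d, Adra2b and Adrb3 had at most 6 counts in a library. The only histamine receptor tested was Hrh3, the Gi-coupled receptor of brain neurons, with 108 and 73 against 49 and 118 counts. Its antisense partner Gm17180, which shares 349 exon bases, had at most 3 counts. Hrh1 and Hrh2 had 4 to 9 counts per library, and Hrh4 had 1 count in all.

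Among the muscarinic receptors, Chrm2 (GRCm38 chromosome 6, 36388084 to 36528414, plus strand), a Gi-coupled receptor that serves as an autoreceptor on cholinergic terminals, was the other gene lower in cKO by the rule of the study. The WT libraries held 64 and 55 counts and the cKO libraries 30 and 16. Both WT libraries were close together and both cKO libraries were below them, the nearest pair differing by 1.82-fold. Its level was 3.33 ± 0.491 CPM in WT and 1.27 ± 0.526 CPM in cKO (SD, n = 2 each), a log2 fold change of -1.39 (SE 0.429), with an unadjusted p of 0.0121 and an adjusted p of 0.999897 from edgeR. The cKO over WT ratio of the summed counts was 0.383 (0.266 to 0.542, counting error alone), and the 2 WT libraries differed by 1.23-fold (0.846 to 1.80). With 1 library left out, the log2 fold change ran from -1.89 (without cKO 1) to -1.01. The latter, without cKO 2, had an unadjusted p of 0.0652 and no longer met the rule. Without WT 1, the library with the highest sums of choroid plexus and mesenchyme markers, the value was -1.23. The other libraries held these markers too. Chrm2 shares 142 exon bases with the antisense gene 9330158H04Rik, which had 2 or 3 counts in every library.

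The other muscarinic genes lay nearer to 0. Chrm1, a Gq-coupled receptor, had 94 and 128 against 84 and 95 counts, a log2 fold change of -0.32 (SE 0.295), with the nearest libraries 1.02-fold apart, and it shares 329 exon bases with Gm22820 on the opposite strand. Chrm3, also Gq-coupled, had 61 and 55 against 59 and 69 counts and a log2 fold change of 0.13 (SE 0.331). Chrm4, which shares Gi coupling with Chrm2, had 14 and 23 against 13 and 21 counts and a log2 fold change of -0.13 (SE 0.512). The differences between these genes and Chrm2 were not tested. Chrm5 had 2 to 4 counts per library. The cholinergic neuron list summed to 88.8 and 76.8 CPM in WT and to 54.5 and 70.5 CPM in cKO, with all 6 tested genes below 0 and 0 called, and its part in the Chrm2 value was not tested. Of this list, Chat had 11, 7, 8 and 3 counts.

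The windows around the start sites of the 2 receptors that met the rule are shown because NF-κB is one of the factors activated by STING. They come from RefSeq (GRCm38.p6) and hold 250 bases before and 50 after the annotated start, and 38 of the 48 receptor genes had such a window. The general κB motif GGGNNNNNCC was searched on both strands, and capitals mark a match.
Chrm2, chr6:36387834-36388133, plus strand: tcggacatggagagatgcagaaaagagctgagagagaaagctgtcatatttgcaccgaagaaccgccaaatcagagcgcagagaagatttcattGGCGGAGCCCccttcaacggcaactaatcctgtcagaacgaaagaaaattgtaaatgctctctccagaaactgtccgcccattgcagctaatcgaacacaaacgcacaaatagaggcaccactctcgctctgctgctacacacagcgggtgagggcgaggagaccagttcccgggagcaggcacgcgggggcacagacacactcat
Htr2c, chrX:146962263-146962562, plus strand: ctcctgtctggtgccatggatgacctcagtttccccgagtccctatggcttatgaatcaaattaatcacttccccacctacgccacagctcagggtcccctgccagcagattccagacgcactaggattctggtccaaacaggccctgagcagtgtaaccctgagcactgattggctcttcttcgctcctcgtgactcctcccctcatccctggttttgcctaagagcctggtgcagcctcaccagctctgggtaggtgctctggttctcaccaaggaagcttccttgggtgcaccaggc
Chrm2 held 1 match and Htr2c held 0, while 50.8% of 32851 RefSeq windows of this length held at least 1. The Chrm2 window had 16 CpG and 52.7% GC and that of Htr2c had 5 CpG and 56.3% GC, beside a median of 7 CpG over all windows. A match of these letters is a description of the sequence and not a binding site.

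Nicotinic subunits made up most of the receptor signal, and none met the rule with all 4 libraries. Chrnb2 had 1737 and 2083 against 1848 and 2023 counts, which is 106.5 ± 9.35 and 107.1 ± 8.64 CPM (SD, n = 2 each), with a log2 fold change of 0.01 (SE 0.152). It shares 1365 exon bases with Adar, an RNA editing gene on the opposite strand that had 1536 to 1858 counts, and reads of these partners cannot be told apart without strand. Chrna4 had 260 and 209 against 151 and 261 counts, a log2 fold change of -0.20 (SE 0.312). The gene cluster of Chrna3, Chrna5 and Chrnb4 on chromosome 9 showed no common direction. Chrna3 had 127 and 93 against 113 and 91 counts. Chrna5 had 10 and 9 against 15 and 16, the only subunit above WT in both cKO libraries, with a log2 fold change of 0.68 (SE 0.511, unadjusted p 0.218, edgeR). Chrnb4 had 31 and 28 against 32 and 21.

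Chrna7, which forms homomeric calcium-permeable channels, had 39 counts in WT 1 and 138 counts in WT 2, with 153 and 116 in the cKO libraries. WT 1 was low and the other three were alike. The log2 fold change was 0.61 (SE 0.500) with all libraries, -0.01 without WT 1 and 1.73 without WT 2. The last value had an unadjusted p of 0.000814 and an adjusted p of 0.125 (edgeR) and met the rule of the study, together with 0.303% of all genes in the higher direction. The WT libraries differed by 3.34-fold (2.33 to 4.90, counting error alone), whereas the cKO libraries differed from WT 2 by a ratio of 0.992 (0.805 to 1.23). Chrnb1, best known as the β subunit of the muscle receptor, had 48 and 43 against 22 and 34 counts, a log2 fold change of -0.71 (SE 0.410, unadjusted p 0.121). Muscle markers were low, with 61 to 98 counts for the 10 genes measured in each library, and the muscle subunits Chrna1, Chrne and Chrng had at most 3 counts. Chrna2 had at most 7.

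**Figure D4:**
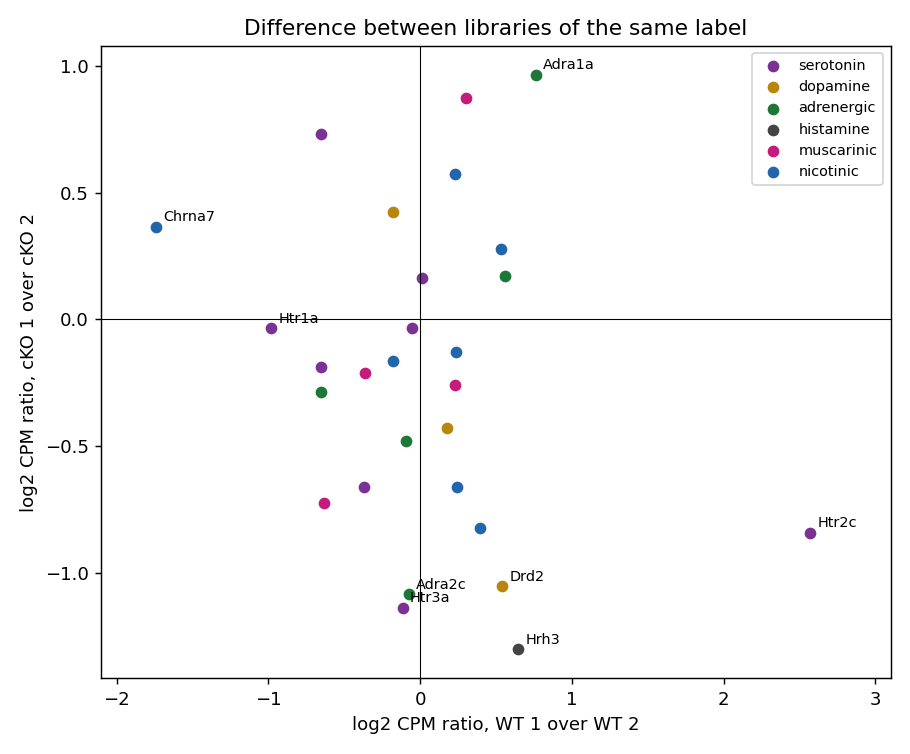
Log2 ratio of WT 1 over WT 2 (horizontal) against that of cKO 1 over cKO 2 (vertical) for the 28 tested receptor genes, colored by family, with names for genes near or beyond a 2-fold ratio on either axis. Htr2c (5.94-fold) and Chrna7 (3.34-fold) stand far out on the WT axis in opposite directions, and Hrh3, Htr3a, Adra2c and Drd2 lie low on the cKO axis.

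The larger of the 2 same-label differences was set against the difference between the group means. Being the larger of 2 differences between single libraries, it tends to exceed a difference of means even where the groups do not differ. It did so in 19 of the 28 receptors (67.9%), a smaller share than the 87.5% of all genes tested, and no conclusion is drawn from it. Between the WT libraries 2 receptors were at least 2-fold apart, Htr2c and Chrna7 (7.14%, beside 5.24% of all genes). Between the cKO libraries 4 were, Hrh3, Htr3a, Adra2c and Drd2 (14.3%, beside 7.69%). All 4 were higher in cKO 2, by 2.47-fold for Hrh3 (1.75 to 3.51, counting error alone), 2.2 for Htr3a (1.44 to 3.41), 2.12 for Adra2c (1.53 to 2.96) and 2.07 for Drd2 (1.40 to 3.13). cKO 1 was the lowest library for 13 of the 28 receptors (46.4%), beside 27.3% of all genes. The ventral telencephalon and striatum markers were also lowest in cKO 1, at 806 CPM against 1200 and 1156 in WT and 1145 in cKO 2, with all 14 below 0 in the comparison and 0 called. Their part in the low receptor values of cKO 1 was not tested.

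Counted by order alone, 7 of the 28 receptors had both cKO libraries below both WT libraries (Adra1b, Adrb1, Chrm1, Chrm2, Chrnb1, Htr1b and Htr2c), a share to be read against 10.8% of all genes tested. Another 4 had both cKO libraries above (Chrna5, Drd1, Drd4 and Htr6, background 11.0%). The nearest libraries of opposite label were 2.50-fold apart for Htr2c, 2.06 for Htr1b and 1.82 for Chrm2. For the others named here the gap ran from 1.02 (Chrm1) to 1.43 (Chrna5). Htr1b had only 5 to 11 counts per library. The share of all genes with gaps of this size was not counted, so no conclusion is drawn from them.

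Summed by family, serotonin receptors gave 16.2 and 14.0 CPM in WT and 9.40 and 11.5 CPM in cKO, and muscarinic receptors gave 13.6 and 14.4 against 10.3 and 11.4 CPM. The groups did not overlap in these 2 families, but for serotonin this rested on Htr2c, which gave 101 of the 282 serotonin receptor counts of WT 1. Without Htr2c, a choice made after seeing the data, the other 13 genes summed to 10.4 and 13.03 against 9.18 and 11.1 CPM, and the groups overlapped. The muscarinic separation rested on Chrm2 in the same way, which gave 3.68 and 2.99 against 1.64 and 0.895 CPM. Without Chrm2, again a choice made after seeing the data, the muscarinic groups overlapped too. Nicotinic subunits gave 130 and 142 against 128 and 144 CPM, dopamine receptors 7.99 and 6.46 against 7.76 and 9.01, adrenergic receptors 21.6 and 22.8 against 15.5 and 22.0, and histamine receptors 7.02 and 4.56 against 3.22 and 7.55. In every family except dopamine, where WT 2 was lowest, cKO 1 was the lowest library, the serotonin and muscarinic families included.

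**Figure D5:**
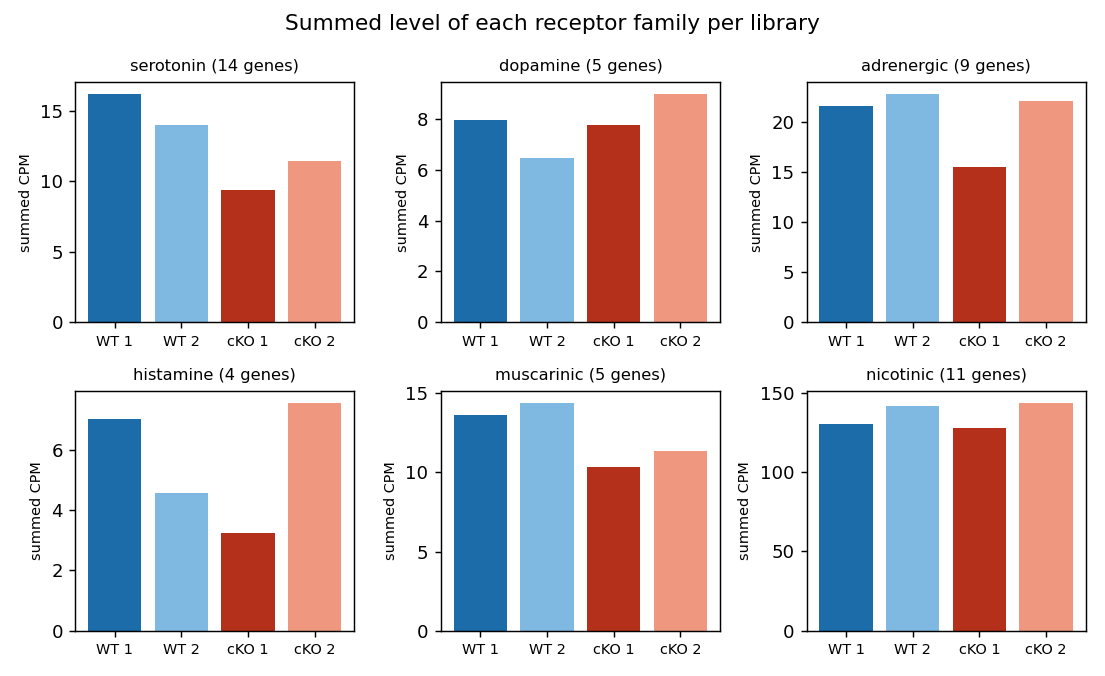
Summed TMM-scaled CPM of each receptor family in the 4 libraries (bars, each axis from 0). Serotonin and muscarinic sums are lower in both cKO libraries (9.40 and 11.5, 10.3 and 11.4 CPM) than in both WT libraries. For serotonin this holds only with Htr2c included (10.4 and 13.03 against 9.18 and 11.1 CPM without it). For the muscarinic family it holds only with Chrm2 included. The nicotinic sum, most of it Chrnb2, stays between 128 and 144 CPM.

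The genes that make, carry and break down the transmitters (33 listed) were read from the same fit, together with receptor chaperones and modulators, G proteins, second messenger enzymes and receptor kinases. Of 78 distinct genes in these 6 lists 75 were in the table and 61 were tested. By the rule of the study 1 was lower (background 0.669%) and 0 were higher (0.142%), and their median log2 fold change was -0.06. The median was -0.04 over 15 genes of monoamine synthesis, transport and breakdown (9 below 0) and -0.28 over 4 of acetylcholine (3 below 0). The gene called was Lynx1, a membrane-tethered modulator that damps nicotinic receptors, with 54 and 31 against 20 and 20 counts, a log2 fold change of -1.11 (SE 0.457, unadjusted p 0.0420, adjusted p 0.999897, edgeR). It was called without WT 2 too, and in no fit that left out one of the other libraries. The median over the 10 tested chaperones and Ly6 modulators was 0.00.

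Transmitter synthesis genes were near the floor for serotonin and noradrenaline. Tph2, the neuronal tryptophan hydroxylase, had 3 to 5 counts, Tph1 had 4 to 9, the dopamine β-hydroxylase gene Dbh had 0 or 1, and the dopamine transporter gene Slc6a3 had 2 or 3. Th, tyrosine hydroxylase, had 55 and 74 against 29 and 60 counts, a log2 fold change of -0.54 (SE 0.432). Without cKO 2, which leaves 1 library in the cKO group, it was -1.16 and Th met the rule of the study. The vesicular monoamine transporter gene Slc18a2 had 635 and 428 against 448 and 282 counts and a log2 fold change of -0.57 (SE 0.287, unadjusted p 0.0829, edgeR), and its groups overlapped. The serotonin transporter gene Slc6a4 had 7 and 14 against 7 and 10 counts, the decarboxylase gene Ddc 38 and 27 against 29 and 31, and the histidine decarboxylase gene Hdc 9 and 13 against 10 and 19. The serotonin neuron list summed to 4.60 and 3.26 CPM in WT and 3.01 and 3.53 in cKO. Slc6a2 was not analysed here.

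On the cholinergic side, Ache, which encodes acetylcholinesterase, had 133 and 116 against 73 and 107 counts, a log2 fold change of -0.48 (SE 0.314, unadjusted p 0.163, edgeR), with both cKO libraries below WT. The vesicular acetylcholine transporter gene Slc18a3 had 15 and 12 against 5 and 16 counts, and the choline transporter gene Slc5a7 had 12 and 9 against 9 and 1. Downstream of the receptors no gene was called. Medians were -0.04 for 12 G protein α subunits (7 below 0), -0.10 for 13 adenylyl cyclases and phospholipase C β enzymes (10 below 0), and 0.08 for 7 receptor kinases and arrestins (3 below 0).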

How the data were processed

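RNA-seq libraries of E13 mouse telencephalic tissue were grouped by the genotype label, 2 WT and 2 cKO. The authors deposited raw read counts per gene for all 4 libraries, and their processing notes name Bowtie2 2.2.3, TopHat2 2.0.12 and HTSeq 0.6.0. The notes name mm9, but 97.3% of 27232 gene positions lay within 1 base of GENCODE M21, so positions were read as GRCm38. Blank rows (11 of 27304, 0.0403%) were left out. A second deposited table of WT 1 and cKO 1 held identical counts for all 21342 shared genes and was used only for genes absent from the first. Deposited fold changes, p-values and scaled values were not used. Strand settings are not given in the sources used here.

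Counts went into the quasi-likelihood test of edgeR 4.0.16 (R 4.3.3; filterByExpr, TMM, no covariate) on 16145 genes, with Benjamini-Hochberg adjustment over all of them. A library left out leaves 1 in its group, which was assumed to vary like the other group. DESeq2 1.42.0, size-factor scaling, other filters, a replicate block and an unadjusted p of at most 0.01 were tried as alternatives. The code was tested on simulated data. Exon lengths came from GENCODE M21. Ratio intervals are exact 95% binomial intervals (scipy 1.17.1) and cover counting error only. With 2 libraries per group no exact permutation test can reach 0.05. Receptors with at least 10 counts in a library, those meeting a rule in any fit, and Htr2c are given with all 4 counts, the rest by range, and some values are not reported here. Of 6 pathway lists, genes meeting the rule and the enzymes and transporters defining each transmitter were named. Single marker genes, Bche, Ly6g6e and Slc22a2 were picked for naming with their values in view. The receptors, the 6 pathway lists and the 15 marker lists were chosen with earlier results of these data known.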

Additional observations from a re-analysis of the deposited data

How the results depend on the processing

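Depth is a limit here, since 20 of 48 receptors had at most 12 counts in any library and were not tested, and 2 libraries per group gave 0 genes an adjusted p under 0.05. Receptors with an adjusted p under 0.05 (0) became 1, Htr2c, without a filter, and ran from 0 to 1 with a library left out (1 without WT 2). Receptors lower by the 2-fold rule (2) became 1 at 10 counts in every library, where Htr2c dropped out, 1 at an unadjusted p of at most 0.01, and 1 to 2 with a library left out. Receptors higher (0) ran from 0 to 1 with a library left out. Pathway genes lower (1) became 2 without a filter (Slc22a2 added), 0 with DESeq2, 0 at p of at most 0.01, and 0 to 1 with a library left out, where Bche was the gene called without cKO 1. Pathway genes higher (0) ran from 0 to 1, the 1 being Ly6g6e without WT 2. Except at these settings, no receptor or pathway count moved by over 1.5 times, and the cause was not tested.

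With a library left out, 23 of 112 log2 fold changes, in 15 of 28 receptors, changed direction. Their ranges were Adra2a -0.45 to 0.0201, Adra2c -0.55 to 0.52, Chrm4 -0.52 to 0.23, Chrna3 -0.37 to 0.16, Chrna4 -0.66 to 0.15, Chrna7 -0.0128 to 1.73, Chrnb2 -0.0789 to 0.11, Chrnb4 -0.49 to 0.10, Drd2 -0.57 to 0.47, Hrh3 -0.91 to 0.38, Htr1a -0.79 to 0.19, Htr2a -0.25 to 0.53, Htr3a -1.12 to 0.00395, Htr5a -0.55 to 0.0936 and Htr7 -0.46 to 0.20. Among 135 values from the other alternatives 2 changed direction, Adra2c (-0.00245) and Drd2 (-0.0187), both under the replicate block. Same-numbered libraries shared only a number (correlation of their deviations 0.104), and the block changed no other receptor or pathway call, leaving 2 receptors lower, while over all genes it gave 176 lower, 32 higher and 5 with an adjusted p under 0.05, beside 108, 23 and 0. Over all genes, no filter gave 333 lower, 72 higher and 65 adjusted calls, 10 counts in every library gave 59 and 13, DESeq2 gave 72 and 10, and leaving out a library gave 48 to 469 lower and 17 to 52 higher with 0 to 80 adjusted calls. Scaling by plain totals moved 0 of 56 mean levels by over 1 SD.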
